A study of Drosophila melanogaster with 33 samples.

Results

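The genes described here are 121 Drosophila melanogaster genes whose expression was higher at the late than at the first round of culture of l(3)mbt tumours. They were chosen from the measured values, among 11983 genes represented by 1 Affymetrix probe set each. A gene was included when its mean log2 expression at round 10 (T10) lay at least 1.5 above the mean at round 1 (T1), its mean at round 5 (T5) at least 0.5 above T1, and its T10 mean over 6. The differences between rounds are therefore the selection itself and are given as description, without a test. The same rule turned around, for genes that faded, gave 310 genes.

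The study profiled total RNA of larval brains and tumours on 33 arrays, 24 of them brains and 9 tumours. The 3 tumour groups T1, T5 and T10, with 3 arrays each, were l(3)mbt[ts1] tumours kept by serial transplantation into adult flies, so that a tumour sample could also hold host tissue. The larval brains were wild type w1118 (WT, 6 arrays), l(3)mbt[ts1] homozygotes raised at 17 °C (ts1 17, 3 arrays) or 29 °C (ts1 29, 6 arrays), l(3)mbt[E2] homozygotes raised at 17 °C (E2 17, 3 arrays) or 29 °C (E2 29, 3 arrays), and ts1/E2 transheterozygotes at 29 °C (ts1/E2 29, 3 arrays). The temperature of the WT larvae is not given in the labels. All mutant groups carried l(3)mbt alleles, and no tumour of another genotype was profiled. Arrays came from 2 sites: WT and ts1 29 had 3 arrays each at IRB and at EMBL, ts1 17 was run at EMBL and every other group at IRB. The labels do not say whether replicates are separate tumour lines, separate hosts or pools of animals, so the spread between arrays may be partly technical.

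The l(3)mbt gene encodes a protein with malignant brain tumour repeats that acts in chromatin complexes which repress transcription. Larvae that lack its function form brain tumours from the optic lobe neuroepithelium, a tissue that gives rise to neuroblasts, the neural stem cells of the fly. Fragments of such tumours can be grown in the abdomen of adult flies and passed from host to host, and each transfer counts as a culture round.

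The mutated gene was itself measured in every group, with means of 7.23 to 9.09. It averaged 7.52 ± 0.53 (SD, n = 3) in WT brains at IRB, 8.78 ± 0.30 at T1 and 9.09 ± 0.19 at T10. Its RNA level does not check the labels, since the position of the probe set relative to the mutations is not given. Among the defining neuroblast markers, ase averaged 10.50 at T1 and 10.80 at T10, and wor 10.73 and 11.20. Of the brain arrays, 5 were set apart after the values were seen. By the log2 difference between the 5′ and 3′ control probe sets of eIF4a, the lowest were E2 29 replicate 1 at -11.96, ts1 17 replicate 2 at -5.25 and ts1 29 replicate 3 at -4.94. The next lowest were ts1 29 replicate 6 and E2 17 replicate 2, at -2.38 and -2.37, close to ts1 17 replicate 1 at -2.22. They had 56 and 65 of the 121 genes over 4, while ts1/E2 29 replicate 2, which was kept, had 62, so the choice of these last 2 arrays was not set by either value alone. No tumour array was among these 5, and counts in brains are given with and without them.

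Over the 121 genes, the T10 mean exceeded the T1 mean by 1.505 to 7.55 on the log2 scale, with a median difference of 2.12. The median level over the genes was 5.11, 5.75 and 4.66 on the T1 arrays, 7.42, 7.64 and 6.61 on the T5 arrays and 7.45, 8.01 and 7.83 on the T10 arrays. The lowest T5 array and the lowest T10 array both lay above the highest T1 array. Gene by gene, all 3 T10 arrays were above all 3 T1 arrays in 94 of the 121 genes, where 19.4% of all tested genes had this order. T5 lay entirely above T1 in 69 genes, against 16.5% of tested genes, and T10 entirely above T5 in 30, against 9.16%. All of these orders share the arrays that chose the genes. In a bulk sample, more cells of a kind and more RNA per cell cannot be told apart.

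**Figure D1:**
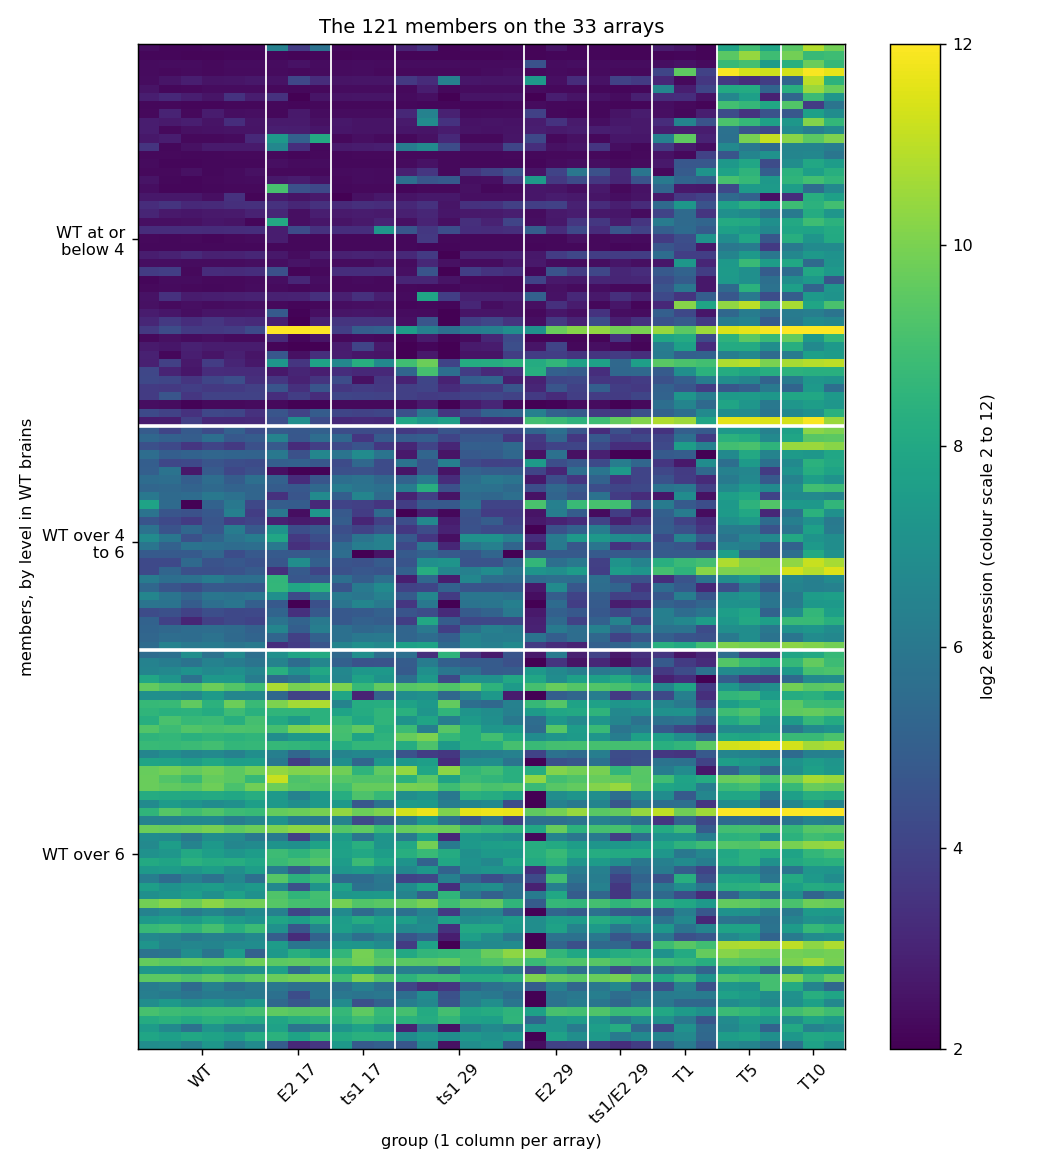
Log2 expression of the 121 genes (rows) on the 33 arrays (columns, grouped by genotype, temperature in °C or tumour round), with rows ordered by level in WT brains and then by the T10 minus T1 difference. The upper block of 46 genes at or below 4 in WT brains is dark across most brain arrays and bright in T5 and T10, and in the lower block of 48 genes over 6 in WT the T1 columns are darker than WT (41 genes) and than T10. The T1, T5 and T10 columns hold the values that chose the genes.

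Most of the difference was in place by the fifth round. The median gene had reached 75.6% of its T10 minus T1 difference at T5, 63 genes stood within 0.5 of their T10 mean or above it, and 20 had a higher mean at T5 than at T10. At the other end, 31 genes were at least 1 higher at T10 than at T5, and 14 at least 1.5 higher.

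The largest difference was in Esp, which encodes an anion transporter of the SLC26 family. Esp measured 2.76, 2.58 and 2.13 on the T1 arrays, 7.79, 8.93 and 7.89 on the T5 arrays and 9.40, 10.87 and 9.86 on the T10 arrays. The 3 rounds did not overlap, and T5 lay closer to T10 than to T1. CG13857 measured 2.15, 2.16 and 2.15 at T1, 9.45, 10.41 and 8.89 at T5 and 9.86, 8.75 and 8.88 at T10. It was below 3 at T1 and on all 24 brain arrays, and its T5 and T10 arrays overlapped. The cuticle gene snsl (snustorr snarlik), whose product is an extracellular protein of the larval cuticle, measured 2.35, 2.49 and 2.30 at T1, 8.74, 9.03 and 7.48 at T5 and 8.34, 9.72 and 8.64 at T10. CG15480 was spread widely at T1, with 4.10, 9.52 and 3.97, before 11.94, 11.36 and 11.28 at T5 and 11.32, 11.89 and 11.61 at T10. One T1 array of this gene was thus over 5 above the other T1 arrays, and below every later array.

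Several further genes of the same size of difference encode surface, secreted or transport proteins. The G protein-coupled receptor gene mthl10, of the Methuselah family, measured 4.83, 3.74 and 3.25 at T1, 9.33, 8.77 and 8.38 at T5 and 8.66, 9.60 and 8.86 at T10. The odorant-binding protein gene Obp99d measured 6.59, 2.84 and 4.08 at T1, 8.07, 8.10 and 5.22 at T5 and 8.32, 10.51 and 9.68 at T10. Its T1 and T5 arrays overlapped. The larval cuticle protein gene Lcp65Ag3 stayed low at T5, with 3.66, 3.26 and 3.82 after 3.11, 2.26 and 3.62 at T1, and then spread over 5.23, 8.46 and 11.003 on the T10 arrays. The ecdysone-inducible ABC transporter gene E23 measured 3.54, 2.56 and 3.09 at T1, 5.57, 3.97 and 3.72 at T5 and 7.83, 8.02 and 8.69 at T10. Lcp65Ag3 had reached 11.2% of its difference at T5 and E23 26.5%, so both belonged to the late group. Among the 15 genes with the largest differences, GV1 (4.89), CG7016 (4.34) and CG34165 (3.92), named by their T10 minus T1 values, have no role stated here.

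The remaining genes of these 15 include regulators. The zinc-finger gene elB measured 4.10, 5.64 and 3.70 at T1, 8.38, 8.15 and 6.70 at T5 and 7.89, 9.41 and 9.47 at T10. The adaptor gene rau, which acts in receptor tyrosine kinase signalling, measured 3.65, 4.33 and 5.72 at T1 and 7.36, 9.04 and 9.18 at T10. The serine protease gene Hayan, which acts in melanisation, measured 3.23, 3.30 and 2.49 at T1, 6.57, 7.64 and 2.93 at T5 and 5.29, 8.81 and 7.23 at T10. One T5 array of Hayan was thus still at the T1 level. The cohesin subunit gene SA2 peaked at T5, with 8.99, 8.66 and 7.95 after 2.36, 2.26 and 2.15 at T1, and its T10 arrays split into 9.30, 3.79 and 5.85. SA2 met the rule by its mean, and its T10 mean of 6.31 ± 2.78 (SD, n = 3) describes none of the 3 arrays.

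**Figure D2:**
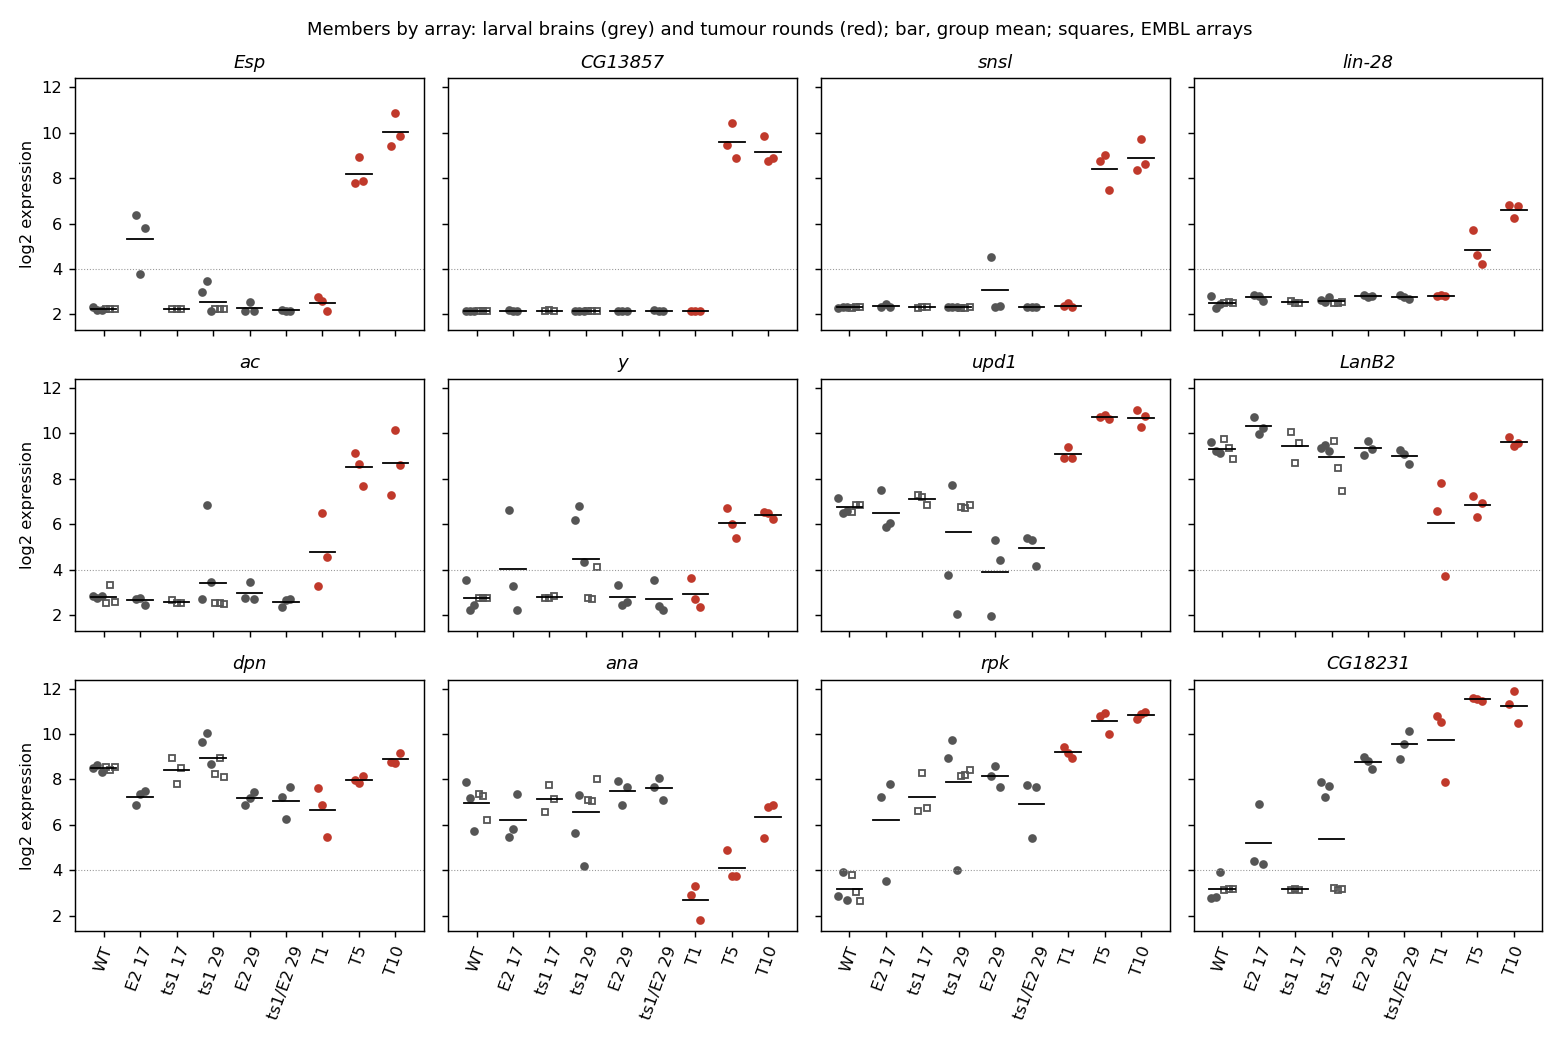
Log2 expression of 12 of the genes on every array, with larval brain groups in grey, tumour rounds in red, a bar for the group mean, open squares for EMBL arrays and a dotted line at the low-value limit of 4. Esp, CG13857, snsl and lin-28 sit near 2 to 3 at T1 and higher at T5 and T10, LanB2, dpn and ana are lower at T1 than in WT brains, and rpk and CG18231 are already high at T1.

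Genes that act in neural progenitors were among them. The gene ac (achaete) encodes a proneural transcription factor of the basic helix-loop-helix class, and measured 3.28, 6.51 and 4.55 at T1, 9.16, 8.67 and 7.69 at T5 and 7.28, 10.16 and 8.61 at T10. The WT brains at IRB held 2.73 to 2.84. Its neighbour y (yellow), which is needed for dark cuticle pigment, measured 3.64, 2.71 and 2.35 at T1, 6.73, 5.99 and 5.40 at T5 and 6.52, 6.51 and 6.22 at T10. The neuroblast transcription factor gene dpn (deadpan) measured 7.60, 6.88 and 5.46 at T1, 7.97, 7.83 and 8.17 at T5 and 8.78, 8.72 and 9.17 at T10. Its WT level at IRB was 8.34 to 8.63, so that T1 was lower than WT and T10 close to it. The RNA-binding protein gene lin-28 measured 2.80, 2.84 and 2.81 at T1, 5.72, 4.61 and 4.19 at T5 and 6.81, 6.26 and 6.77 at T10, with all 24 brain arrays below 3. The gene ana encodes a secreted glial glycoprotein that holds neuroblasts in quiescence. It measured 2.90, 3.31 and 1.81 at T1, 4.89, 3.73 and 3.73 at T5 and 5.40, 6.77 and 6.89 at T10, against 6.94 in WT.

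Of the 121 genes, 13 stood in any of the 37 gene lists examined. The lists held 612 genes, beside 11983 genes on the array. Leaving the 121 aside, 17 of the other 20 neuroblast and ganglion mother cell genes tested had a higher mean at T10 than at T1, with a median difference of 0.42. The highest was btd, which encodes a zinc-finger transcription factor, at 7.23 and 8.55, and the lowest erm, at 7.13 and 5.82. In the neuroblast temporal factor list, which holds lin-28, 5 of the other 14 genes tested had a higher mean, with a median of -0.48 and a lowest difference of -4.30. Of 22 neuronal genes, 4 had a higher mean, with a median of -0.54, and of the other 16 glial genes 8 had, with a median of 0.06. Over all 8265 tested genes 59.2% had a higher T10 mean, with a median of 0.08. These are the arrays that chose the 121 genes, and no test was made on them.

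Among the signalling and immune lists, the 121 included 1 of 11 JAK-STAT genes on the array, 1 of 17 EGFR, FGF and PVR genes and 2 of 21 immune genes. The Hippo, Notch, Wnt and TGF-beta and Hedgehog lists held none of them. The lists are not complete, since BobA, of a family of Notch pathway regulators, was among the 121 but not in the Notch list of 10 genes. Over the whole array 121 of 11983 genes were chosen. The JAK-STAT ligand gene upd1 measured 8.89, 9.41 and 8.92 at T1, 10.73, 10.81 and 10.62 at T5 and 11.02, 10.28 and 10.77 at T10, and averaged 6.74 in WT brains. The other 7 JAK-STAT genes tested differed by -0.996 to 1.11 between T10 and T1, with a median of 0.09, and the receptor dome averaged 9.28 at T1 and 9.63 at T10. The FGF ligand gene bnl measured 4.22, 3.50 and 4.99 at T1, 4.70, 6.05 and 4.35 at T5 and 4.94, 7.37 and 7.15 at T10, with T1 and T10 arrays overlapping. The antimicrobial peptide gene Mtk ranged widely, with 6.39, 9.50 and 2.98 at T1, 5.68, 9.94 and 11.12 at T5 and 10.21, 9.49 and 10.06 at T10. The peptidoglycan recognition protein genes PGRP-LF and PGRP-LA are separated by 1 coding gene on chromosome 3L. PGRP-LF measured 5.02, 4.18 and 2.62 at T1 and 6.18, 6.27 and 5.86 at T10, while PGRP-LA measured 5.49, 4.82 and 3.12 at T1 and 6.46, 6.32 and 6.38 at T10. Of the other 14 antimicrobial peptide and immune recognition genes tested, 5 had a higher mean at T10 than at T1, with a median difference of -0.66. Among them the antimicrobial peptide gene DptB averaged 5.98 at T1 and 7.92 at T10, and the Toll receptor gene Tl 9.55 and 7.83.

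The laminin gamma chain gene LanB2 was late, with 6.58, 7.83 and 3.69 at T1, 7.24, 6.34 and 6.92 at T5 and 9.85, 9.43 and 9.57 at T10. Of the other laminin chain genes, LanA averaged 9.91 at T1 and 9.24 at T10, and LanB1 10.48 and 10.61. The E-cadherin gene shg measured 4.94, 6.16 and 4.81 at T1 and 5.79, 7.70 and 6.96 at T10, with overlapping arrays. The chitinase gene Cht7 measured 4.87, 6.93 and 8.38 at T1 and 8.42, 8.31 and 8.32 at T10. The gene tomb, which stood in both the testis list and the l(3)mbt complex list, measured 4.64, 5.95 and 2.63 at T1 and 7.66, 5.17 and 7.20 at T10. Its T1 and T10 arrays overlapped. The other genes of the l(3)mbt complex list differed by at most 0.51 between T10 and T1.

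The 6 genes with the highest T10 levels were Jhbp1, of the juvenile hormone binding protein family (12.37), lncRNA:CR32368 (12.10), CG15480 (11.61), BobA of the Bearded family of Notch pathway regulators (11.25), CG18231 (11.24) and CG7059 (10.92), where the values are T10 means. All but CG15480 had T1 means over 8. Jhbp1 measured 11.06, 9.83 and 10.57 at T1, and CG7059 8.30, 8.60 and 9.45. BobA measured 9.02, 8.46 and 10.21 at T1 and 11.36, 10.90 and 11.49 at T10. Levels are compared with other groups of the same probe set only, because probe sets differ in brightness.

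The level in WT brains split the genes into 3 kinds. At or below 4 in WT were 46 genes, 38.0% of the 121, whereas 3.77% of the 6048 genes with a T10 mean over 6 were that low in WT. The 121 also had to have a T1 mean well below T10, which was not asked of the 6048. These shares therefore do not compare like sets, and no result is drawn from them. In 34 of the 46 the T1 mean was already at least 1 above WT, and their median T10 minus WT difference was 4.57. A second kind of 27 genes held 4 to 6 in WT, with a median T10 minus WT difference of 2.31. The rule's T10 mean over 6 by itself puts every gene of these 2 kinds above WT at T10, so that direction is not a result.

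The third kind, 48 genes over 6 in WT, was lower than WT at T1 in 41 cases, 36 of them by at least 1. The median was 1.88 below WT at T1 and 0.12 above it at T10. The rule asks for a T1 mean well below T10, which favours a T1 mean below WT in such genes. No share over all genes over 6 in WT was taken for these counts. At T10, 30 of the 48 were within 1 of WT, 15 were at least 1 above and 3 at least 1 below. Those 3, picked for their values, were Orct, an organic cation transporter gene, the forkhead gene fd59A and the zinc transporter gene ZnT41F. Orct averaged 9.15 in WT at IRB, 4.09 ± 0.66 (SD, n = 3) at T1, 6.88 ± 0.15 at T5 and 6.62 ± 0.61 at T10. The basic helix-loop-helix gene Fer2 averaged 8.70 in WT, 5.38 ± 0.69 at T1 and 8.08 ± 0.61 at T10. The clock-related gene Cipc averaged 8.99 in WT, 5.54 ± 1.32 at T1 and 8.998 ± 0.403 at T10. LanB2 and kn, which encodes a COE-family transcription factor, followed the same course, with WT means of 9.32 and 9.73, T1 means of 6.03 and 7.26 and T10 means of 9.62 and 9.15.

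**Figure D3:**
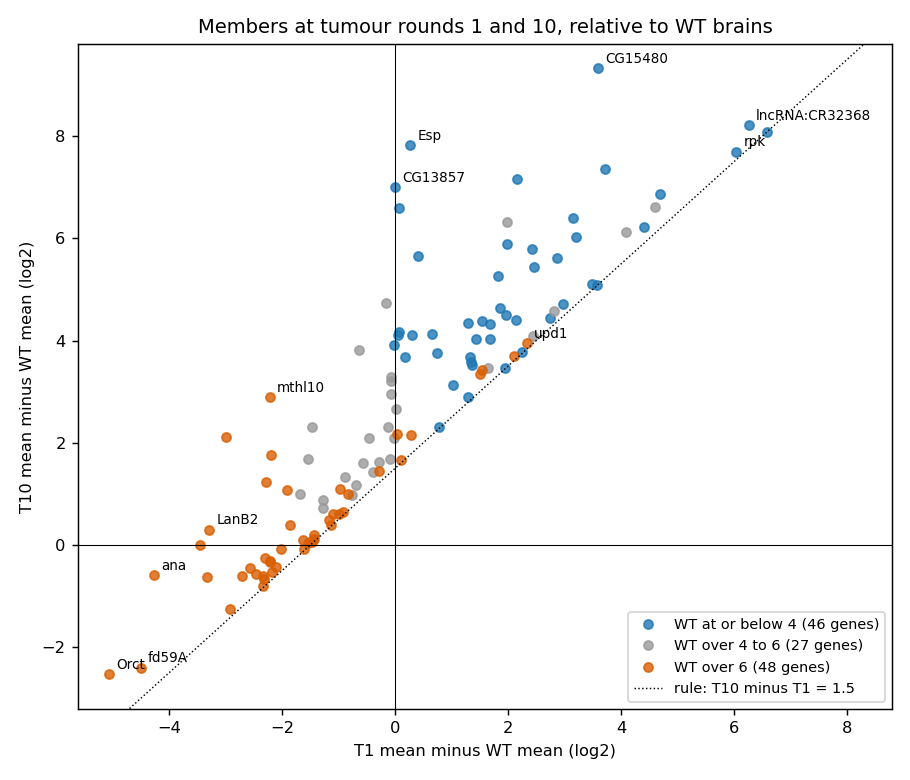
T1 mean minus WT mean (x axis) against T10 mean minus WT mean (y axis), both log2, for the 121 genes, coloured by level in WT brains, with the dotted line at the rule's T10 minus T1 of 1.5. Genes over 6 in WT lie mostly to the left of 0 on the x axis and near 0 on the y axis. Genes at or below 4 in WT all lie above 0 on the y axis, which the rule's T10 mean over 6 requires.

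Against all brain groups, 90 of the 121 genes had a T10 mean above the highest brain mean. The rule chose genes with a high T10 mean, and no share over all genes was taken for this count or the next ones. In 26 every brain mean was at or below 4, and 17 were over 4 on no brain array. In 10 genes every brain mean and the T1 mean were at or below 4, although single arrays could be higher, as for PGRP-LF at T1: CG13857, snsl, Hayan, SA2, lin-28, CG30484, CG11438, CG6553, CG32201 and PGRP-LF. CG30484, one of the 6 lowest before T5, measured 2.48, 2.26 and 3.96 at T1, 4.62, 6.52 and 7.05 at T5 and 6.53, 6.63 and 5.94 at T10. Esp is missing from these 10 because of the E2 17 brains, where it measured 6.38, 3.78 and 5.78.

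Marker lists of host tissue differed in how they moved over the same rounds, with gut and fat body sums lower on every T10 array than on every T1 array, and muscle, hemocyte and tracheal sums overlapping between them. For adult gut enzymes, the log2 of the summed level over 16 genes was 14.11, 9.71 and 9.06 on the T1 arrays, 6.42, 6.28 and 9.70 at T5 and 6.48, 6.32 and 6.83 at T10, and 9, 2 and 0 of the genes had a mean over 4. For the 16 genes of adult fat body and yolk it was 14.42, 14.12 and 13.56 at T1, 13.07, 13.32 and 13.06 at T5 and 13.04, 13.06 and 13.10 at T10, with 14, 8 and 9 genes over 4. In WT larval brains the fat body sum was 15.72 to 15.82, above every tumour array, with the lipoprotein gene apolpp at 12.57, against 10.22 at T1 and 7.82 at T10. This sum therefore does not measure adult host tissue alone. The yolk protein gene Yp1 averaged 11.05 at T1, 4.44 at T5 and 7.58 at T10, and the trypsin gene alphaTry 7.75, 2.238 and 2.25. The sum over 18 sarcomere genes was 10.62 to 11.59 at T1 and 10.24 to 10.71 at T10, with 14, 9 and 9 genes over 4 at T1, T5 and T10. Gene by gene most were lower, since 1 of the 16 tested had a higher mean at T10 than at T1, with a median difference of -1.48. Hemocyte genes summed to 12.10 to 12.50 at T1 and 12.25 to 12.31 at T10. Among the defining hemocyte genes, NimC1 averaged 6.95 at T1 and 7.55 at T10, eater 2.41 and 5.27, and Sr-CI 5.17 and 5.50. Lower at T10 were Hml (6.89 and 5.97), He (5.70 and 4.79), PPO1 (3.35 and 2.65) and PPO2 (4.20 and 2.78). Of the 17 hemocyte genes tested, 7 had a higher mean at T10 than at T1, with a median difference of -0.23. Tracheal and cuticle genes summed to 10.53 to 11.22 at T1 and 11.06 to 11.35 at T10. The part of the host tissue in the difference between rounds was not tested. The T1 arrays also correlated less with each other (median r of 0.93) than the T5 and T10 arrays (0.96 to 0.98).

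**Figure D4:**
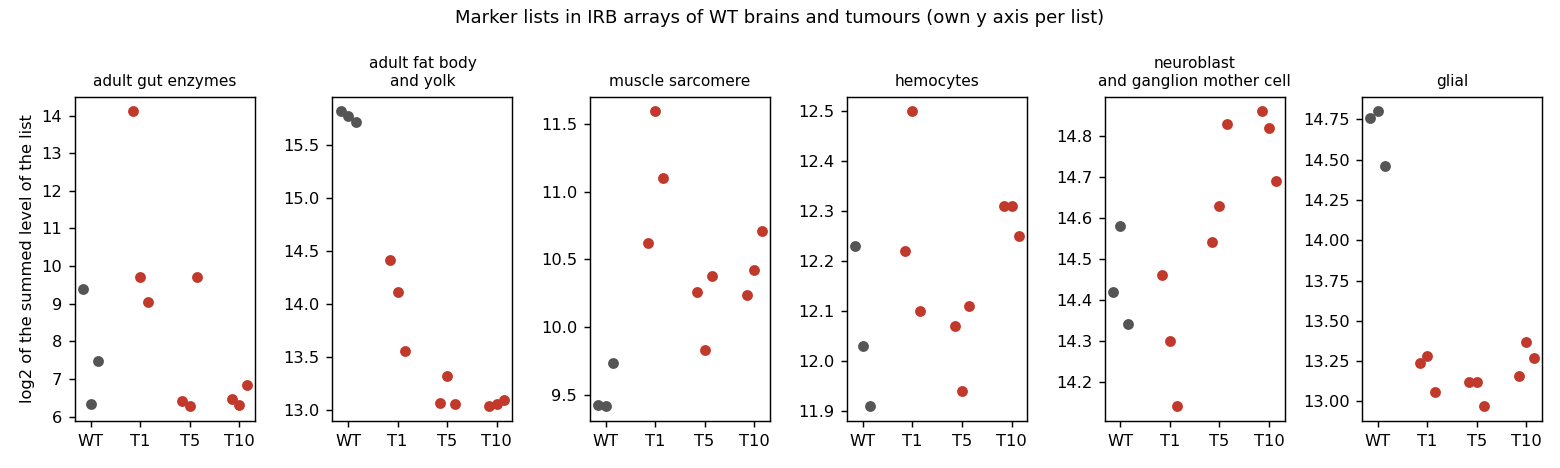
Log2 of the summed level of 6 marker lists on each IRB array of WT brains and of tumours at T1, T5 and T10, 1 point per array, with a y axis of its own for each list. Gut enzyme genes are highest at T1 with 1 T5 array (9.70) near 2 of the T1 arrays (9.71 and 9.06), fat body genes are highest in WT and lower at T5 and T10 than at T1, and neuroblast genes are higher at T10 than at T1.

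Several lists of genes for processes known in l(3)mbt tumours held none of the 121. None of the 26 piRNA pathway genes on the array was among them, nor any of 21 germline and oogenesis genes, of 21 cell cycle and replication genes or of 17 genes of JNK signalling and invasion. Over the whole array 121 of 11983 genes were chosen, so lists of 17 to 26 genes would hold few or none at that share. The log2 of the summed level of the piRNA list was 14.01 to 14.18 at T1 and 13.73 to 13.94 at T10, above the 12.10 to 12.33 of WT brains at IRB. The germline list summed to 13.89 to 14.12 at T1 and 13.64 to 13.76 at T10, against 12.46 to 12.49 in WT. Both lists were thus already above WT in the first round and not higher in the tenth. The cell cycle list summed to 14.97 to 15.02 at T1 and 15.14 to 15.24 at T10.

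Other probe sets gave a second reading for 16 of the genes. Over all 23 of their other probe sets the median T10 minus T1 was 0.11. In 6 it was at least 1, in 12 within 0.2 of 0 and in 1 at most -1. Of these 23, 9 had a T10 mean over 4, a limit that favours probe sets high at T10, and the 6 with a difference of at least 1 were among them. GV1 differed by 7.88 on its second probe set, against 4.89 on the one that chose it, and mthl10 by 2.40 against 5.10. A second probe set of Ddr, which encodes a discoidin domain receptor, differed by -0.12 against 1.89. That of CG42565 was lower at T10 (2.32) than at T1 (3.39), a difference of -1.07 against 1.81.

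By the RefSeq order of coding genes, 118 coding members could be placed, and 5 pairs of them were direct neighbours: y and ac on X, upd1 and CG6023 on X, kn and hui on 2R, CG18231 and CG32201 on 3L, and CG7059 and CG13857 on 3R. Another 8 pairs had at most 3 coding genes between them. The 5 chromosome arms held 14 (X), 22 (2L), 26 (2R), 29 (3L) and 29 (3R) of the genes, and 51 of the 121 are known only by a CG or CR number.

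CG6023 tracked its neighbour upd1 in level, with T1, T5 and T10 means of 8.42, 9.96 and 10.08 beside 9.07, 10.72 and 10.69. CG7059 and CG13857 differed by contrast, since CG7059 averaged 8.78 at T1 when CG13857 was at 2.15. Whether neighbours share control was not tested.

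Genes just inside the limits were CG18231 and Fbxl7 for T10 minus T1 (1.505 and 1.51), fd59A and CG9164 for T5 minus T1 (0.50 and 0.57), and ZnT41F and CG33468 for the T10 mean (6.02 and 6.06). Just outside lay CG14937 and CG11597 (1.497 and 1.496), CG30183 and Dad (0.43 and 0.38), and Alp12 and CG10834 (5.9996 and 5.95).

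The larval brains were not used by the rule, and in them the genes could be tested. A difference was called at a Benjamini-Hochberg adjusted p under 0.05 over the 8265 tested genes, in limma, with an absolute log2 difference of at least 1. All 121 genes passed the low-value filter, but they did so through the T10 arrays, and 93 were over 4 on at least 3 brain arrays. The comparisons of E2 29, ts1/E2 29 and the IRB arrays of ts1 29 with WT share the same 3 WT arrays. Most of the 121 genes were not called in any one comparison, and their median differences were near those of all tested genes. The shares of all tested genes given below come from the fit to all arrays. None was taken for the fits that leave arrays out, so the counts from those fits have no background beside them.

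At IRB, 8 of the 121 genes were higher in ts1 29 than in WT brains, where 3.11% of all tested genes were, and 5 were lower, where 5.67% were. Their median difference was -0.20, against -0.14 for all tested genes. Without the 5 arrays the counts were 15 and 5. The number lower was 12 without ts1 29 replicate 5, 3 without ts1 29 replicate 4 or 6 and 2 without WT replicate 1 or 2. At EMBL, 4 were higher (background 3.69%) and 5 lower (3.07%), with medians of -0.02 and -0.01. Counts without the 5 arrays were also 4 and 5, and 7 of the 9 calls were shared. The number lower was 3 without ts1 29 replicate 1, 1 without replicate 3 and 2 without WT replicate 4, 5 or 6.

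In E2 29 against WT, 7 genes were higher (background 3.98%) and 13 lower (5.08%), with a median of -0.13 against -0.21 over all tested genes. Without the 5 arrays 6 were higher and 6 lower. The number lower was 4 without E2 29 replicate 1, 28 without replicate 2 and 21 without replicate 3, and 5, 5 and 6 without WT replicate 1, 2 or 3. The number higher was 12 without E2 29 replicate 2. With the replicate number as a block, 8 were lower. In ts1/E2 29 against WT, 4 were higher (3.34%) and 8 lower (2.53%), with a median of -0.12 against -0.09. Without the 5 arrays 5 were higher and 24 lower, although none of the 5 belonged to ts1/E2 29 or WT. The share of all tested genes called in that fit was not taken. The number lower was 2 and 3 without ts1/E2 29 replicate 2 or 3, and 2, 3 and 4 without WT replicate 1, 2 or 3.

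**Figure D5:**
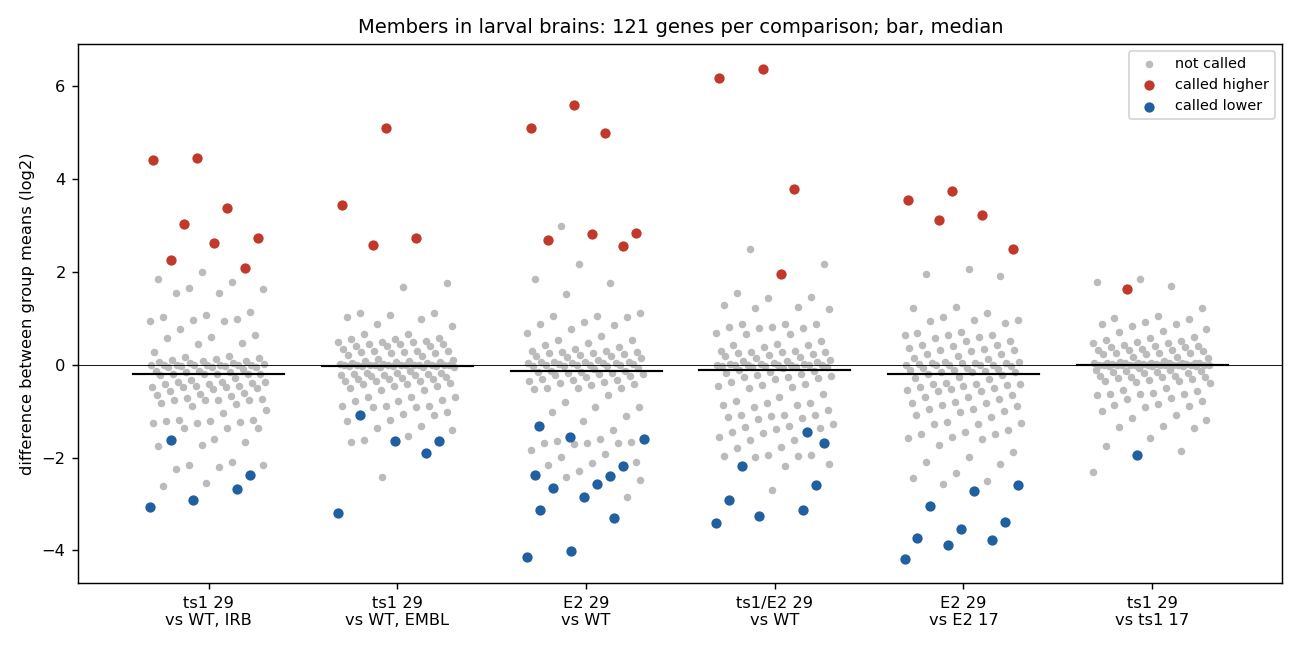
Log2 difference between group means for the 121 genes in 6 comparisons of larval brains, with called genes in red (higher) or blue (lower), other genes in grey and a bar at the median. The medians lie between -0.20 and -0.01, and a few genes stand far above or below them in each comparison.

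A small number of genes were higher in the mutant brains too. CG18231 measured 2.76, 2.81 and 3.91 in the WT brains at IRB, 7.90, 7.24 and 7.69 in ts1 29 at IRB, 8.97, 8.83 and 8.47 in E2 29 and 8.90, 9.58 and 10.15 in ts1/E2 29. All arrays of the 3 mutant groups lay above the WT arrays, and limma gave differences of 4.45 (SE 0.60, adjusted p = 1.67e-05), 5.60 (adjusted p = 3.02e-07) and 6.38 (adjusted p = 2.99e-08). At EMBL the same genotype ts1 29 measured 3.23, 3.13 and 3.16, at the WT level of 3.13 to 3.18. The limma test of the difference between the sites gave 4.44 (SE 0.85, adjusted p = 0.00298), where 1.09% of tested genes were called higher and 2.59% lower in that test. It held under all 17 alternatives tried, at 3.997 to 4.82. With an additive term for site, the ts1 29 difference was 2.23.

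The long noncoding RNA lncRNA:CR32368 measured 3.68, 4.32 and 3.68 in WT at IRB, 7.57, 6.34 and 5.62 in ts1 29 at IRB, 7.06, 9.70 and 10.20 in E2 29 and 10.36, 9.89 and 9.98 in ts1/E2 29. It was higher than WT at both sites, by 2.62 at IRB and 2.58 at EMBL (limma, adjusted p = 0.00323 and 0.00324). In E2 29 and ts1/E2 29 it was higher by 5.09 and 6.18 (limma, adjusted p = 4.25e-07 and 1.37e-08). The highest brain values were in E2 17, with 13.38, 12.61 and 12.28, above the T10 arrays.

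The gene rpk encodes a sodium channel subunit of the DEG/ENaC family. It measured 2.87, 3.90 and 2.68 in WT at IRB, 8.95, 9.74 and 3.99 in ts1 29 at IRB and 8.17, 8.58 and 7.68 in E2 29. It was higher by 4.41 in ts1 29 at IRB, 5.10 at EMBL and 4.99 in E2 29 (limma, adjusted p = 0.00657, 0.0018 and 0.00228). In ts1/E2 29 it was higher by 3.78 (limma, adjusted p = 0.0224). That last call was lost without ts1/E2 29 replicate 1 or 3 and without WT replicate 1 or 3, with adjusted p of 0.072, 0.104, 0.084 and 0.087 in limma.

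Jhbp1 was higher in ts1 29 at both sites. It measured 8.54, 9.36 and 8.94 in WT and 11.30, 11.71 and 10.08 in ts1 29 at IRB, and 9.23, 8.86 and 8.75 against 11.63, 11.74 and 11.68 at EMBL. The differences were 2.08 and 2.74 (limma, adjusted p = 0.000236 and 5.18e-06). Against ts1 17 it was 1.62 higher at 29 °C (limma, adjusted p = 0.00655). CG30440 was higher in ts1 29 at IRB and EMBL and in E2 29, by 2.25, 3.45 and 2.69 (limma, adjusted p = 0.0149, 0.000321 and 0.00411). CG10089 was higher by 2.73 in ts1 29 at IRB (limma, adjusted p = 0.00499) and by 2.83 in E2 29, which was 1.67 without E2 29 replicate 1. In ts1 29 at EMBL its difference was 0.49 and was not called.

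Cht7 and y were higher in ts1 29 at IRB by 3.39 and 3.04 (limma, adjusted p = 0.0124 and 0.00869). At EMBL they differed by 0.25 and 0.45 and were not called. The difference between the sites was not called for either gene (limma, adjusted p = 0.138 and 0.151). The call for Cht7 was lost without ts1 29 replicate 5 (adjusted p = 0.075) or WT replicate 3 (adjusted p = 0.054), both in limma. That for y was lost with an additive site term (limma, adjusted p = 0.051). Its neighbour ac, with 2.72, 6.83 and 3.46 in the ts1 29 brains at IRB, was not called (limma, adjusted p = 0.215).

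Other genes that were higher in late tumours were lower in mutant brains than in WT. The receptor gene mthl10 measured 6.42, 6.21 and 5.82 in WT at IRB, -0.02, 3.52 and 2.54 in E2 29 and 3.10, 2.45 and 3.15 in ts1/E2 29. The differences were -4.14 in E2 29 and -3.25 in ts1/E2 29 (limma, adjusted p = 1.51e-05 and 0.000402). Without E2 29 replicate 1 the E2 29 difference was -3.12. The mean of its 2 probe sets gave -2.10 and -1.65. The glycosyltransferase gene beta4GalNAcTB measured 7.85, 7.79 and 7.58 in WT at IRB and 2.07, 4.43 and 4.69 in E2 29, a difference of -4.01 (limma, adjusted p = 0.00272). In ts1/E2 29 its difference of -2.91 (limma, adjusted p = 0.0324) was lost without ts1/E2 29 replicate 2 or 3 or any one WT array (0.0756 to 0.160). The Golgi complex gene Cog8 measured 6.56, 6.94 and 6.57 in WT and 4.57, 3.82 and 3.63 in ts1 29 at IRB, a difference of -2.68 (limma, adjusted p = 0.000428). At EMBL the ts1 29 difference of Cog8 was -0.45 and was not called.

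The neuroblast gene dpn was lower in E2 29 and ts1/E2 29, with differences of -1.32 and -1.46 (limma, adjusted p = 0.0451 and 0.0339). The first call was lost without E2 29 replicate 1 (-1.17, limma, adjusted p = 0.222), without any one WT array (0.0883 to 0.126) and with the replicate number as a block (0.0703). The second was lost without ts1/E2 29 replicate 2 (-1.06, limma, adjusted p = 0.282), without any one WT array (0.0702 to 0.116) and with the block (0.0560). In ts1 29 at IRB it measured 9.67, 10.05 and 8.67, all above the WT arrays. That difference of 0.97 was not called (limma, adjusted p = 0.154), and at EMBL the ts1 29 difference was -0.06. The adhesion gene shg was lower in E2 29 and in ts1/E2 29, with differences of -3.29 and -3.13 (limma, adjusted p = 0.0129 and 0.0188). The first call was lost without E2 29 replicate 1 (adjusted p = 0.097 in limma) or WT replicate 1 or 2 (0.051 each), and the second without ts1/E2 29 replicate 2 or 3 or WT replicate 1 or 2 (0.052 to 0.088). The ligand gene upd1 measured 7.17, 6.48 and 6.57 in WT at IRB and 1.96, 5.30 and 4.43 in E2 29, a difference of -2.84 (limma, adjusted p = 0.0369). Without E2 29 replicate 1 it was -1.88 (limma, adjusted p = 0.323), and the call was also lost without WT replicate 1, 2 or 3 (0.118, 0.080 and 0.081). Cipc was lower in ts1 29 at EMBL, with 5.61, 5.36 and 6.40 against 8.44, 9.74 and 8.78 in WT, a difference of -3.19 (limma, adjusted p = 0.000863), or -1.98 with an additive site term. At IRB the ts1 29 difference of Cipc was -0.76 and was not called.

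The remaining genes among the 5 called with the greatest differences each way rested on fewer arrays. In ts1 29 at IRB, CG12182 was lower by a difference of -3.06 (limma, adjusted p = 0.0066), which was -1.95 without ts1 29 replicate 6 (limma, adjusted p = 0.0629). There too, CG8301 (-2.91), Nos (-2.37), for the nitric oxide synthase, and Fer2 (-1.61) were called lower, and each call was lost without WT replicate 1 (limma, adjusted p = 0.131, 0.0556 and 0.0671). At EMBL, Fer2 (-1.90), Ddr (-1.64), the channel gene bib (-1.64) and hig (-1.09), for a secreted protein of the synaptic cleft, were called lower. Without ts1 29 replicate 3 all 4 calls were lost (limma, adjusted p = 0.104, 0.169, 0.0855 and 0.0645). On the mean of its probe sets the difference for Ddr was -0.75.

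In E2 29, Mesh1, for a (p)ppGpp hydrolase, differed by -3.14 (limma, adjusted p = 0.042), and by -1.03 without E2 29 replicate 1 (limma, adjusted p = 0.422). BobA differed by 2.56 and Cht7 by 2.83 from WT, and both calls were lost without E2 29 replicate 1 (limma, adjusted p = 0.0643 and 0.358). In ts1/E2 29, CG12910 (-3.40), ZnT41F (-2.58) and CG30440 (1.95) were called, and all 3 calls were lost without ts1/E2 29 replicate 2 (limma, adjusted p = 0.0754, 0.190 and 0.145). Of the 60 calls on named genes that were followed through the alternatives, 28 were lost under none of them and 0 reversed.

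The temperature comparison in E2 brains gave 5 genes higher at 29 °C than at 17 °C (background 3.33%) and 9 lower (3.19%), with a median of -0.20 against -0.13. The counts without the 5 arrays were 2 and 7. The number higher was 2 without E2 29 replicate 1 and 3 without E2 17 replicate 1 or 3. The number lower was 24 without E2 29 replicate 2 and 5 without E2 17 replicate 1 or 3. In ts1 brains at EMBL, 1 gene was higher (1.74%), Jhbp1, and 1 lower (0.52%), rau. Without the 5 arrays 2 were higher and none lower. The call for rau (limma, adjusted p = 0.0434) was lost without any one of ts1 17 replicates 2 and 3 or of the ts1 29 arrays at EMBL (0.0525 to 0.163). The number lower was 3 without ts1 17 replicate 1.

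Several of the tumour genes were higher in E2 brains at the lower temperature. Esp measured 6.38, 3.78 and 5.78 in E2 17 and 2.15, 2.52 and 2.16 in E2 29, a difference of -3.04 (limma, adjusted p = 5.49e-05), a call that held under all 15 alternatives tried. No WT array was above 2.31. PGRP-LA measured 8.63, 7.91 and 8.33 in E2 17 and 2.70, 6.81 and 4.72 in E2 29, a difference of -3.55 (limma, adjusted p = 0.00274). Mtk measured 7.35, 5.09 and 8.06 against 4.15, 2.25 and 2.47, a difference of -3.87 (limma, adjusted p = 0.0347). Its call was lost without E2 17 replicate 1 or 3 or E2 29 replicate 2 or 3 (adjusted p = 0.122, 0.146, 0.051 and 0.060 in limma). The transporter gene E23 was lower at 29 °C, with a difference of -3.74 (limma, adjusted p = 0.0115), a call lost without E2 17 replicate 3 (0.051) or E2 29 replicate 1 (0.076). BobA and CG18231 went the other way, higher at 29 °C by 3.11 and 3.55 (limma, adjusted p = 0.00538 and 0.000305). Jhbp14 (3.75), Cht7 (3.24) and CG10089 (2.50) were also called higher, and all 3 calls were lost without E2 29 replicate 1 (limma, adjusted p = 0.156, 0.173 and 0.0886). The receptor gene mthl10 and lncRNA:CR32368 were lower at 29 °C, with differences of -4.18 and -3.77 (limma, adjusted p = 2.01e-05 and 5.83e-05).

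For 3 genes the temperature effect itself differed between E2 and ts1 brains, where 0.242% of tested genes were called in that direction and 0.133% in the other. The effect of 29 °C against 17 °C in E2 minus that in ts1 was -3.03 for Esp, -5.62 for lncRNA:CR32368 and -4.21 for mthl10 (limma, adjusted p = 0.0233, 0.000329 and 0.0129). The E2 arrays came from IRB and the ts1 arrays from EMBL, so allele and site cannot be told apart in this difference. The call for lncRNA:CR32368 held under all 17 alternatives tried. That for Esp was lost under 11 of 17 (limma, adjusted p of 0.0519 to 0.135 there), among them each ts1 array left out. That for mthl10 was lost on the mean of its probe sets (-2.09, limma, adjusted p = 0.261) and with arrays centred on their median (0.0751).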

How the data were processed

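Larval brains and serially transplanted tumours were profiled on 33 Affymetrix arrays. Expression values were deposited by the authors as log2 values of 18952 probe sets, made with GCRMA per the submitters' processing notes. In the deposited values the WT means of the IRB and EMBL arrays were equal for every probe set (greatest difference 6.7e-09), a centring by site that the labels do not describe. Arrays give no read depth, and their number limits the precision.

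Of the probe sets, 183 were controls, 13647 named 1 gene in the platform annotation, 402 named several and 4720 had no symbol. Each of 11983 genes was represented by its probe set of highest mean, and 11894 genes matched the RefSeq gene table. All 33 arrays were fitted together in limma 3.58.1 (R 4.3.3) with 1 coefficient for each of the 11 combinations of group and site, and contrasts were taken within a site. The 8265 genes over 4 on at least 3 arrays were tested, with Benjamini-Hochberg adjustment over all of them. A call needed an adjusted p under 0.05 and an absolute difference of at least 1. The procedure was tested on simulated data. Tables and figures used Python 3.11.15, pandas 2.3.3, numpy 2.4.6 and matplotlib 3.10.9.

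The members and the gene lists were chosen with earlier results of these data known. Genes named were the 15 with the largest T10 minus T1, the 6 with the highest T10 mean, the 6 lowest before T5, members of the lists, up to 5 calls each way per brain comparison, and those nearest the limits of the rule. Genes named outside this rule (such as CG30440 and Cog8 in further comparisons, LanA, LanB1, dome, CG6023, kn, the neural and host tissue markers and the 3 genes below WT at T10) were chosen after their values were seen. In none of the 7 pairs of groups that share replicate numbers did every same-numbered pair of arrays correlate over 0.1 in its deviations, so the numbers were not taken as pairs.

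Alternatives were an additive site term, arrays of 1 site alone, no low-value filter, a filter at over 6, arrays centred on their median, the mean of a gene's probe sets, each array left out, the replicate number as a block, no minimum difference, and a limit of 2 on T10 minus T1. The fit without the 5 arrays that stand apart, and the alternatives for differences between contrasts, were added after seeing the data. No sequences were used here.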

Additional observations from a re-analysis of the deposited data

Results flagged for a closer look

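In groups of 6 arrays, an array was singled out when its gap to the nearest other array exceeded the 95% critical value of Dixon's test, which chance does in about 1 of 20 groups. Among the genes called in brains, 6 values met this. Of them, 4 came from 1 array, ts1 29 replicate 6, which is among the 5 arrays set apart. There rpk measured 3.99 (group median 8.29), CG12182 3.44 (median 7.14), Jhbp1 10.08 (median 11.65) and Mtk 3.13 (median 2.37). The value of mthl10 on ts1 29 replicate 5 was 6.20 (median 4.89). CG18231 measured 3.91 on WT replicate 3 (median 3.15).

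Effects that differed between groups were found for 4 genes by a limma test of the difference itself. The effect of 29 °C in E2 minus that in ts1 brains was -5.62 for lncRNA:CR32368 (adjusted p = 0.000329), -4.21 for mthl10 (adjusted p = 0.0129) and -3.03 for Esp (adjusted p = 0.0233). In these 3 results allele and site cannot be told apart. The ts1 29 minus WT difference of CG18231 was 4.44 greater at IRB than at EMBL (limma, adjusted p = 0.00298), within 1 genotype.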

How the results depend on the processing

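The counts of genes in brains depended on single arrays, while none of the 60 followed calls reversed and 28 were lost under none of the alternatives. With arrays of 1 site alone, E2 29 against E2 17 gave 3 higher and 5 lower, E2 29 against WT 7 lower, ts1/E2 29 against WT 4 lower, ts1 29 against WT 3 lower at IRB and 7 higher and 10 lower at EMBL, and ts1 29 against ts1 17 gave 4 higher and 3 lower. With an additive site term, ts1 29 at EMBL gave 7 higher against WT and 0 lower against ts1 17. With no filter, E2 29 gave 8 lower and ts1 29 against ts1 17 0 lower. With arrays centred on their median, the median of all tested genes in E2 29 against WT was -0.722, against -0.205 without centring. That setting gave 2 higher in ts1/E2 29, 1 lower in ts1 29 at EMBL, and 0 and 0 in ts1 29 against ts1 17. Without the 5 arrays, E2 29 gave 2 higher against E2 17 and 6 lower against WT, ts1/E2 29 24 lower, ts1 29 at IRB 15 higher, and ts1 29 against ts1 17 2 higher and 0 lower. The share of all tested genes called was not taken for these alternatives, and the cause of the changes was not tested.

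Leaving out 1 array gave, as higher and lower counts, 2 to 6 and 5 to 24 in E2 29 against E2 17, 5 to 12 and 4 to 28 in E2 29, 3 to 4 and 2 to 12 in ts1/E2 29, 7 to 12 and 2 to 12 in ts1 29 at IRB, 4 and 1 to 4 at EMBL, and 1 and 0 to 3 in ts1 29 against ts1 17. The rule itself chose 103 genes without T1 replicate 3, of which 89 were among the 121. Without T1 replicate 2 it chose 169, of which 111 were among the 121. Without T10 replicate 2 it chose 118, of which 98 were. It chose 262 with arrays centred on their median, 121 of them shared, 112 on the mean of probe sets, 109 of them shared, and 70 with T10 at least 2 above T1.

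With the replicate number as a block, E2 29 against WT gave 8 lower in place of 13, and no other count moved by over 1.5 times. No paired analysis was possible for ts1 29 against WT because its arrays share no numbers with the WT arrays of their site.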
